A study of Paeonia lactiflora with 8 samples.

Results

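The flower of the herbaceous peony Paeonia lactiflora was set against its young fruit, as the step from blossom to early fruit growth, in the small RNA of 4 libraries out of the 8 in the series. Each tissue had 2 libraries (n = 2), which the series text calls biological replicates. Flowers were taken at blossom and fruits at the young fruit stage, so organ and stage cannot be told apart, and all tissue was frozen in liquid nitrogen. The labels give no cultivar, age, treatment or floral part for these groups. The series, which also holds root and leaf at blossom, is about tissues that differ in paeoniflorin, a monoterpene glucoside of peony. The deposited table named 270 different mature sequences, and the 180 with a normalized read count of at least 1 in at least 2 of the 4 libraries are compared here. Another 90 did not meet that minimum, and 102 of the 180 were above 0 in all 4 libraries. The tissue labels could not be checked against marker genes, since no messenger RNA was analysed here. In whole organs, fewer cells of a type and less RNA per cell cannot be told apart.

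Plant microRNAs (miRNAs) are cut from hairpin precursors by DICER-LIKE1 and loaded into ARGONAUTE1, where they pair with messenger RNAs that are then cleaved or repressed. Many conserved families act on transcription factors that set organ identity and growth, and miR156 with miR172 is best known for timing the vegetative and reproductive phases. A hairpin gives a 5p and a 3p arm, of which one is usually the abundant guide. The bases near the 5' end, here bases 2 to 8, are called the seed. Targets named below are known from other plants, mostly Arabidopsis, and were not measured here.

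The sequences below are those described most closely in the text, shown so that forms and seeds can be compared, and they are not a ranking. The seed is in capitals and each is written 5' to 3' as deposited, with T for U. The first set had both flower values above both fruit values.

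mtr-miR5213-5p_R-1_1ss2AG: tGCGTGTGtcttcacctctga
ath-miR858b: tTCGTTGTctgttcgaccttg
ath-miR394a: tTGGCATTctgtccacctcc
gma-miR394a-5p_L+1: cTTGGCATtctgtccacctcc
nta-miR169b: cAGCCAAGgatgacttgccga
sbi-miR169e: tAGCCAAGgatgacttgccgg
ath-miR171a-3p_1ss17AG: tGATTGAGccgcgccagtatc
zma-miR171a-3p_L+1R+1_1ss18AG: cTGATTGAgccgcgccagtatc
ath-miR390a-3p_1ss8CT: cGCTATCTatcctgagtttca
ath-miR157a-5p_2ss12TG15AG: tTGACAGAagagagggagcac
gma-MIR156f-p3_1ss12CG: gCTCTCTCttcgtctgtcatca

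The second set had both fruit values above both flower values. PC-3p-1283_2426, with the largest fruit-side difference, is shown with its possible partner arm further on.

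ath-miR168a-5p: tCGCTTGGtgcaggtcgggaa
mes-miR403a_1ss19TC: tTAGATTCacgcacaaacccg
lus-miR162a: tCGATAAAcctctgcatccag
sly-MIR6022-p3_2ss15TG17GA: cGAAACCTcaatctggagtaga
ppe-MIR319a-p5: tGGTGCATggtgtgggagcaact
gma-miR396a-5p: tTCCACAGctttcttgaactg

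In these names the prefix stands for the species whose miRBase entry was matched. The letters L and R mark bases gained or lost at the 5' and 3' end, and ss marks substitutions, with positions counted from the 5' end. The L+1 forms of miR171 and miR394 start 1 base earlier than the main form, so their seeds differ from those of the main form. The 2 miR169 sequences share a seed.

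Depth and replicate spread differed among the 4 libraries. The summed normalized read count was 224292 and 536567 in flower 1 and 2, and 179334 and 185844 in fruit 1 and 2. The total of flower 2 was the highest, with ath-miR159a alone making up 57.7% of it, against 32.2% in flower 1, 40.0% in fruit 1 and 29.5% in fruit 2. Steps in the values put the depth at 519033 and 724509 reads in flower and 128476 and 201512 in fruit, so that 3 reads correspond to a value of 1.30, 2.22, 4.19 and 2.77 in the order just given. Fruit was thus the shallower tissue, and a fruit value of 0 has a higher floor, which covers counting error only. Whole multiples of the step made up 75.7% and 77.5% of values above 0 in flower and 77.0% and 83.2% in fruit. For a step 2 times finer these shares were 95.2% and 96.0% in flower and 95.7% and 98.6% in fruit. Depths and 3-read values are therefore estimates, and with the finer step the floors used below would be lower. Replicates of miRNAs whose mean over the 4 libraries reached 100 differed by a median of 2.66-fold in flower and 1.60-fold in fruit. More than 10-fold lay between replicates for 5 of 64 in flower and 7 of 63 in fruit, where 1 more was listed at 0 in both libraries. Some of these miRNAs were below 100 in 1 of the tissues. Across the 180 miRNAs, which are not independent, Pearson's r on the log2 scale was 0.846 between the flower libraries and 0.850 between the fruit libraries. It was 0.833 between flower 1 and fruit 2, against 0.672 between flower 2 and fruit 1. Flower 1 and fruit 2 also shared 5 sequences that were at 0 in the 6 other libraries, all named after grasses, such as ata-miR528-5p at 23.3 and 36.9. No sequence was above 0 in flower 1 and fruit 1 alone, in flower 2 and fruit 1 alone, or in flower 2 and fruit 2 alone. The part of this sharing in the results was not tested.

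No miRNA passed the test between flower and fruit, and the differences are therefore given as values. With limma on log2(value + 1) and Benjamini-Hochberg adjustment over the 180, 0 of 180 had an adjusted p under 0.05 in either direction (0% called each way). Unadjusted, 44 had a p under 0.05, of which 34 were higher in flower and 10 in fruit, and 11 shared the lowest adjusted p of 0.0729. Both flower values lay above both fruit values for 63 miRNAs (35%), both fruit values lay above both flower values for 36 (20%), and 81 overlapped. With equal library totals this split turned to 44 against 58, and with quantile normalization it was 47 against 41. The counts given below for each list of miRNAs are read against these shares and splits. The median log2 difference, flower minus fruit, was 0.52 over the 180 as deposited and -0.27 with equal totals. With all 8 libraries in 1 fit, which shares the spread of root and leaf, 13 were called, 11 higher in flower and 2 higher in fruit. Some of the 13, such as ptc-miR390a_R+1 and smo-miR1083_R-1_1ss20GC, were at 0 throughout root, leaf and fruit. For these the added tissues brought zeros and no measured spread. With 1 library left out, the lone library is assumed to vary like the other tissue's pair, so calls are not given. Without a flower library that pair was the fruit pair, which was at 0 in both libraries for 30 of the 180. With 2 libraries against 2, an exact two-sided permutation test of a single miRNA cannot go below p = 0.333. The p-values measure only the spread between these libraries, which no source here ties to separate plants.

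**Figure D1:**
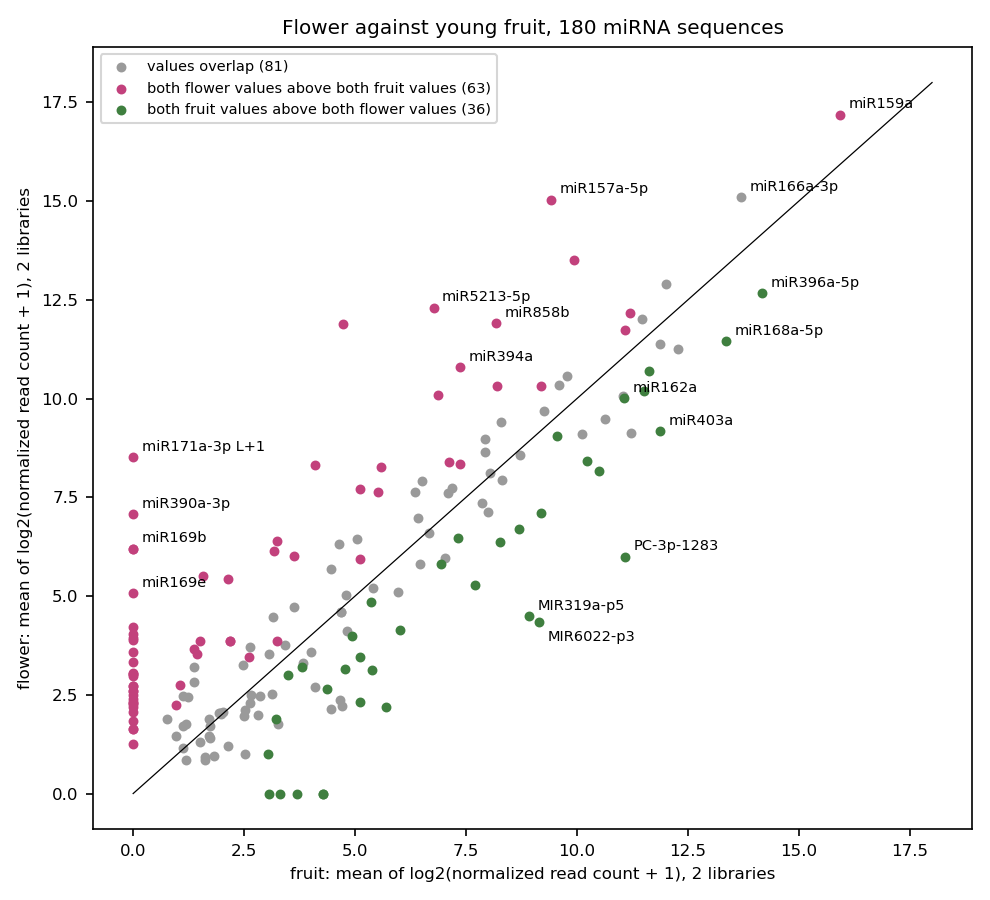
Each point is 1 of the 180 miRNAs, with the mean of log2(normalized read count + 1) over the 2 fruit libraries on the x axis and over the 2 flower libraries on the y axis. Colour marks the 63 with both flower values higher, the 36 with both fruit values higher and the 81 that overlap, and the column of points at 0 on the x axis holds the 30 that both fruit libraries listed at 0.

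A flower-side difference far wider than the replicate gaps was that of miR5213, whose Medicago relative targets immune receptor genes of the TIR-NBS-LRR class. mtr-miR5213-5p_R-1_1ss2AG was 3267 and 7796 in flower and 78.9 and 148 in fruit. Both flower values stood far above both fruit values, 48.7-fold in the means, with a log2 difference of 5.53 ± 0.82 (SE, n = 2 per tissue, limma adjusted p = 0.0729). Root, at 4893 and 999, and leaf, at 2353 and 1699, were also above fruit, so that fruit held the 2 lowest of the 8 values. Its adjusted p was 0.0352 with all 8 libraries in the fit. A shorter form that lacks 3 bases at the 5' end, mtr-miR5213-5p_L-3R-1, was 15.99 and 19.3 in flower and was listed at 0 in both fruit libraries. Its adjusted p was 0.109 with all 8 libraries. At its flower share of the main form it would reach only 0.290 and 0.547 in fruit, so its presence there was not detectable at this depth.

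A member of another family in the immune-receptor list had its higher values in fruit. sly-MIR6022-p3_2ss15TG17GA, from a hairpin family that in tomato targets receptor-like proteins of the Cf resistance type, was 9.94 and 36.3 in flower and 708 and 452 in fruit. Fruit was 25.1-fold higher, and the log2 difference was -4.81 ± 0.95 (SE, n = 2 per tissue, limma adjusted p = 0.0836, and 0.0469 with all 8 libraries). It was listed at 0 in both root libraries and was 81.8 and 217 in leaf, so fruit held the 2 highest of the 8 values. Of the 11 tested members of that list, 4 had both flower values higher and 3 had both fruit values higher, with a median log2 difference of -0.03, and with equal totals the counts were 3 and 5. Of these 11, 6 are miR482 forms made of a CA repeat and say little about that family.

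miR858, which targets MYB genes of flavonoid and phenylpropanoid synthesis, was also low in fruit. ath-miR858b was 3138 and 4664 in flower and 308 and 267 in fruit, 13.5-fold apart, with a log2 difference of 3.73 ± 0.64 (SE, n = 2 per tissue, limma adjusted p = 0.0729, and 0.0352 with all 8 libraries). The replicates of each tissue lay close together beside that gap. Root, at 1090 and 971, and leaf, at 856.6 and 1597, lay between flower and fruit, so all 4 were below the flower values and above the fruit values. The second tested member of the MYB list, gma-miR828a, which starts a cascade of secondary small RNAs from MYB genes, was 183 and 13.3 in flower and 27.2 and 16.1 in fruit, and its groups overlapped.

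The families miR394 and miR169 were likewise higher in flower. miR394 targets LEAF CURLING RESPONSIVENESS, an F-box gene, and ath-miR394a was 884 and 3574 in flower and 97.7 and 274 in fruit. That is 12-fold higher in flower, with a log2 difference of 3.43 ± 1.07 (SE, n = 2 per tissue, limma adjusted p = 0.164, and 0.284 with all 8 libraries). Root was 3548 and 203, so root 1 was near the higher flower value and root 2 between the fruit values, and leaf was 692 and 706. The miR394 form with 1 more base at the 5' end, gma-miR394a-5p_L+1, was 38.9 and 135 in flower and listed at 0 in both fruit libraries (limma adjusted p = 0.0729, and 0.137 with all 8 libraries). In flower this form held 4.40% and 3.77% of the level of the main form, and at the mean of these shares the main form's fruit levels would give 3.99 in fruit 1, under the 3-read value of 4.19 there, and 11.2 in fruit 2, above the 2.77 there.

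miR169 targets the NF-YA subunits of the CCAAT-box binding complex. nta-miR169b was 59.2 and 88.9 in flower, and sbi-miR169e was 35.6 and 30.4 (limma adjusted p = 0.0729 for each, and 0.0815 and 0.0352 with all 8 libraries). Both were listed at 0 in both fruit libraries. The sum over the 7 miR169 sequences in the table was 117 and 133 in flower against 5.58 and 0 in fruit, and root and leaf lay between, from 50.3 to 75.5. All 4 flower values of these 2 miRNAs exceeded the 4.19 that 3 reads are worth in the shallower fruit library.

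miR171, which targets the GRAS genes of the HAIRY MERISTEM group, was higher in flower in several forms. The main form, ath-miR171a-3p_1ss17AG, was 5789 and 23044 in flower and 290 and 3274 in fruit. Both flower values were higher, 8.09-fold in the means, but the pairs were wide and the log2 difference was 3.56 ± 1.54 (SE, n = 2 per tissue, limma adjusted p = 0.276, and 0.189 with all 8 libraries). The form that starts 1 base earlier, zma-miR171a-3p_L+1R+1_1ss18AG, had flower values of 167.7 and 787, while both fruit libraries listed it at 0. This was the largest log2 difference of the 180, at 8.51 ± 1.15 (SE, n = 2 per tissue, limma adjusted p = 0.0729, and 0.0173 with all 8 libraries). The early-start form held 2.90% and 3.42% of the level of the main form in flower and 4.21% and 4.50% in leaf, and it was at 0 in root. At its mean flower share it would have reached 9.17 in fruit 1 and 103 in fruit 2, both above the 3-read values there.

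Of the 8 tested miR171 sequences, 7 had both flower values higher and hvu-MIR171-p3_2ss9GT19GA overlapped, and with equal totals 4 had both flower values higher and 4 overlapped. sly-miR171e, named with its values known, was 658 and 1776 in flower and 44.0 and 304 in fruit, and it was at most 8.16 in root and leaf. aly-miR171c-5p_1ss11GC, a 5p arm, was 122 and 817 in flower and 5.58 and 43.3 in fruit (limma adjusted p = 0.203, and 0.201 with all 8 libraries). In both of these fruit 2 was several times fruit 1. The 9 miR171 sequences summed to 7134 and 27108 in flower and 478.8 and 3897 in fruit (limma adjusted p = 0.198 over families).

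The wider list of regulators of NAC, HD-ZIP III, GRAS, NF-YA and GRF genes, which shape organ boundaries, polarity and cell number, held 34 tested miRNAs. Both flower values were higher for 14 of them and both fruit values for 3, with a median log2 difference of 1.38 against 0.52 over all 180. With equal totals the counts were 10 and 8. bdi-miR166a-3p, which targets HD-ZIP III genes of leaf polarity, was 12937 and 95109 in flower and 12495 and 14083 in fruit, so its higher mean in flower rested on flower 2. Within this list miR396, which targets GROWTH-REGULATING FACTOR genes, was mixed. Of its 10 tested sequences 2 had both flower values higher, 2 had both fruit values higher and 6 overlapped, and with equal totals the first 2 counts were 1 and 5. The most abundant, gma-miR396a-5p, was 7323 and 5797 in flower and 29673 and 11363 in fruit, 3.13-fold higher in fruit (log2 difference -1.49 ± 0.84, SE, n = 2 per tissue, limma adjusted p = 0.365, and 0.301 with all 8 libraries), and it overlapped with quantile normalization. Minor forms called with all 8 libraries were hbr-miR396a_R-3, at 6.34 and 3.95 in flower and 0 in both fruit libraries (limma adjusted p = 0.0457), and ath-miR396b-5p_R-2_2ss18AT19CT, at 0 in both flower libraries and 13.96 and 3.69 in fruit (limma adjusted p = 0.0457). csi-miR164, which targets NAC genes of organ boundaries, was 206 and 696 in flower and 374 and 466 in fruit and overlapped. With equal totals both its fruit values were higher (log2 difference -1.07).

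**Figure D2:**
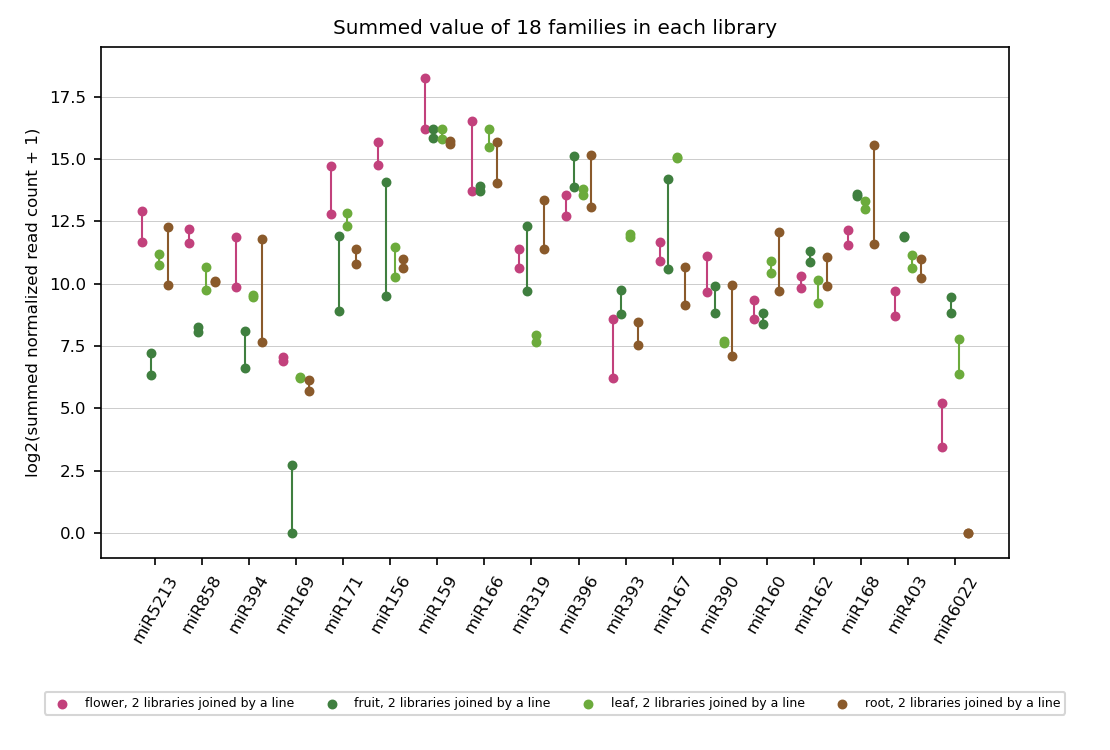
The summed normalized read count of 18 miRNA families is shown as log2(value + 1) on the y axis, 1 point per library, with the 2 libraries of a tissue joined by a line. Fruit lies below every other tissue for miR5213, miR858 and miR169 and above every other tissue for miR6022 and miR403. The long fruit line of miR156 shows how far its 2 libraries were apart.

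The main miRNAs that act on the silencing machinery itself had higher values in fruit, though none passed the test. miR168 targets ARGONAUTE1, miR403 targets ARGONAUTE2 and miR162 targets DICER-LIKE1. ath-miR168a-5p was 2980 and 2629 in flower and 10122 and 10867 in fruit, 3.74-fold higher in fruit, with replicates close in both tissues. Its log2 difference was -1.91 ± 0.65 (SE, n = 2 per tissue, limma adjusted p = 0.183, and 0.485 with all 8 libraries). Root, at 45382 and 2312, had 1 value above both fruit values and 1 below both flower values, and leaf was 9026 and 7440. Fruit was thus not the highest of the tissues for ath-miR168a-5p. mes-miR403a_1ss19TC was 821 and 404 in flower and 3802 and 3718 in fruit, 6.14-fold higher in fruit. Its log2 difference was -2.70 ± 0.71 (SE, n = 2 per tissue, limma adjusted p = 0.106, and 0.0638 with all 8 libraries). With a flower library left out the spread would rest on the 2 close fruit values of this miRNA, so no such adjusted p is given. Of the 8 libraries, the 2 fruit values of mes-miR403a_1ss19TC were the highest and the 2 flower values the lowest, with root at 2009 and 1131 and leaf at 1572 and 2273. lus-miR162a, which was singled out with its values known, was 864 and 1236 in flower and 2478 and 1826 in fruit, 2.05-fold higher (log2 difference -1.04 ± 0.66, SE, n = 2 per tissue, limma adjusted p = 0.419, and 0.482 with all 8 libraries).

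Of the 10 tested miRNAs of these 3 families, 6 had both fruit values higher and 1 had both flower values higher, with a median log2 difference of -0.99 against 0.52 over all 180. With equal totals the counts were 7 and 1, and with quantile normalization 6 and 1. Summed, the list came to 6310 and 4657 in flower and 18201 and 18035 in fruit. The exception, lus-MIR162b-p3_2ss16GA17AG, had flower values of 13.4 and 8.89 and was listed at 0 in both fruit libraries. It was the only 1 of the 10 called with all 8 libraries, as higher in flower (limma adjusted p = 0.0173). Root and leaf were at 0 as well, so only the flower pair gave this miRNA any spread in that fit. Of the 3 that overlapped, ata-miR168-5p and ata-miR168-3p_1ss6CG, both with a grass prefix, were above 0 only in flower 1 and fruit 2 among the 4 libraries.

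The timing families miR156, miR157 and miR172 were split between the tissues. miR156 and miR157 target SPL genes, which promote the adult and flowering phases, and miR172 targets APETALA2-like genes. ath-miR157a-5p_2ss12TG15AG was 45306 and 24954 in flower and 29.3 and 15531 in fruit. Both flower values were higher, but the fruit pair was 530-fold apart, and the log2 difference of 5.61 ± 3.24 (SE, n = 2 per tissue) had a limma adjusted p of 0.366, and 0.301 with all 8 libraries. With equal totals its values overlapped. gma-MIR156f-p3_1ss12CG showed the same split, at 5757 and 2500 in flower and 0 and 698 in fruit. In root and leaf ath-miR157a-5p_2ss12TG15AG was between 17.8 and 172.8, so that fruit 1 was within that range and fruit 2 was nearer the flower level. Fruit 2 is also the library that shared 5 sequences with flower 1 alone, and the part of that sharing in its miR156 and miR157 values was not tested.

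A second miR156, ath-miR156j_1ss14AT, which starts 1 base later than ath-miR157a-5p_2ss12TG15AG, was 600.02 and 462 in flower and 618 and 902 in fruit, so fruit was narrowly the higher pair. nta-miR172d was 243 and 80.4 in flower and 380 in fruit 1, while fruit 2 lay between the flower values, and aly-miR172b-5p_1ss2CT was 19.7 and 0 in flower and 94.9 and 26.7 in fruit. Of the 14 tested miRNAs of the timing list, 4 had both flower values higher and 3 had both fruit values higher, with a median log2 difference of -0.16, and with equal totals the counts were 3 and 4.

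Fruit 1 and fruit 2 were also far apart for other miRNAs that fruit 2 held at flower-like or higher levels. ppe-miR530_L-2R+2 was 33.5 and 1693 in fruit and 291 and 862 in flower. vvi-miR167b, which targets auxin response factor genes of flower and fruit development, was 1316 and 18585 in fruit and 1865 and 3233 in flower. ath-miR319a, which targets TCP genes of petal and leaf growth, was 181 and 3327 in fruit and 1668 and 1004 in flower. In all of these the flower values lay between the fruit values, so no order of the tissues could be read.

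The families miR159 and miR319 have closely related sequences and act on GAMYB and TCP genes of anthers, petals and leaves. ath-miR159a, the most abundant miRNA, was 72286 and 309733 in flower and 71754 and 54832 in fruit, with a log2 difference of 1.25 ± 1.12 (SE, n = 2 per tissue, limma adjusted p = 0.569, and 0.456 with all 8 libraries). Flower 1 was almost level with fruit 1, so the difference in the means rested on flower 2. ppe-MIR319a-p5, from the other arm of a miR319 hairpin, was 13.0 and 35.5 in flower and 253 and 922 in fruit, 24.2-fold higher in fruit (log2 difference -4.42 ± 1.07, SE, n = 2 per tissue, limma adjusted p = 0.0988, and 0.201 with all 8 libraries). ptc-miR159c_L-2R+2_2ss20GC21AT was 2049 and 783 in flower and 230 and 376 in fruit. Of the 11 tested, 3 had both flower values higher and 2 both fruit values, and with equal totals the counts were 1 and 3.

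Within the auxin list, the largest log2 difference was that of a 3p form of the miR390 hairpin. miR390 starts the production of small RNAs from TAS3 that restrain auxin response factors, and its 5p arm is the guide. ath-miR390a-3p_1ss8CT was 65.7 and 272 in flower and listed at 0 in both fruit libraries, with a log2 difference of 7.08 ± 1.10 (SE, n = 2 per tissue, limma adjusted p = 0.0729, and 0.0457 with all 8 libraries). It was 14.2 and 0 in root and at 0 in leaf. Another 3p form, ath-miR390a-3p_1ss18TC, was 236 and 166.6 in flower and 48.9 and 40.6 in fruit. The 5p arm, ath-miR390a-5p_1ss19GA, was 1904 and 361 in flower and 914 and 407 in fruit and overlapped. A minor form with the same seed, ptc-miR390a_R+1, was above 0 only in the 2 flower libraries. It was called as higher in flower with all 8 libraries (log2 difference 2.48, limma adjusted p = 0.0220).

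The arms of miR160, which targets repressing auxin response factors, had opposite orders as deposited, though the 5p values overlapped with equal totals and with quantile normalization. ath-miR160a-5p was 224 and 466 in flower and 131 and 207 in fruit, and ath-miR160a-3p_1ss16TA was 92.5 and 82.2 in flower and 155 and 160.5 in fruit. The 5p to 3p ratio, which does not depend on the library total, was 2.42 and 5.67 in flower and 0.842 and 1.29 in fruit. In root it was 11.4 and 0.240, a replicate gap that spans all 4 of these ratios, so the flower and fruit ratios differ by less than that spread. vvi-miR393a_R+1, which targets the TIR1 auxin receptors, was 338 and 54.1 in flower and 824 and 407.6 in fruit. Of the 16 tested miRNAs of the auxin list, 7 had both flower values higher and 4 both fruit values (35% and 20% over all 180), with a median log2 difference of 0.27. With equal totals the counts were 5 and 4 and the median was -0.28, and with quantile normalization the median was -0.17.

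The lists for nutrients and copper summed to at most 500 per library. Of 9 tested miRNAs of miR395, miR399, miR827 and miR2111, which act in sulfate and phosphate supply, 4 had both flower values higher and 0 both fruit values, with a median log2 difference of 1.41 (35% and 20% over all 180). With equal totals the counts were 4 and 1 and the median 0.49, and with quantile normalization they were 2 and 0 and 0.13. mdm-miR395a, which targets sulfate assimilation genes, was 32.0 and 62.2 in flower and 0 and 7.84 in fruit. Of 5 tested copper-list miRNAs, 1 had both flower values higher and 2 both fruit values. mtr-miR397-5p_L-2R+2, which targets laccases, was at 0 in both flower libraries and 5.58 and 24.0 in fruit (limma adjusted p = 0.0988, and 0.138 with all 8 libraries), and ath-miR408-3p_L-1R+1_2ss12CT15CT was 0 and 16.3 in flower and 0 and 15.7 in fruit. Among 7 tested miRNAs of other conserved families, 4 had both flower values higher and 0 both fruit values, and 3 and 0 with equal totals, where the median moved from 1.05 to 0.14.

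**Figure D3:**
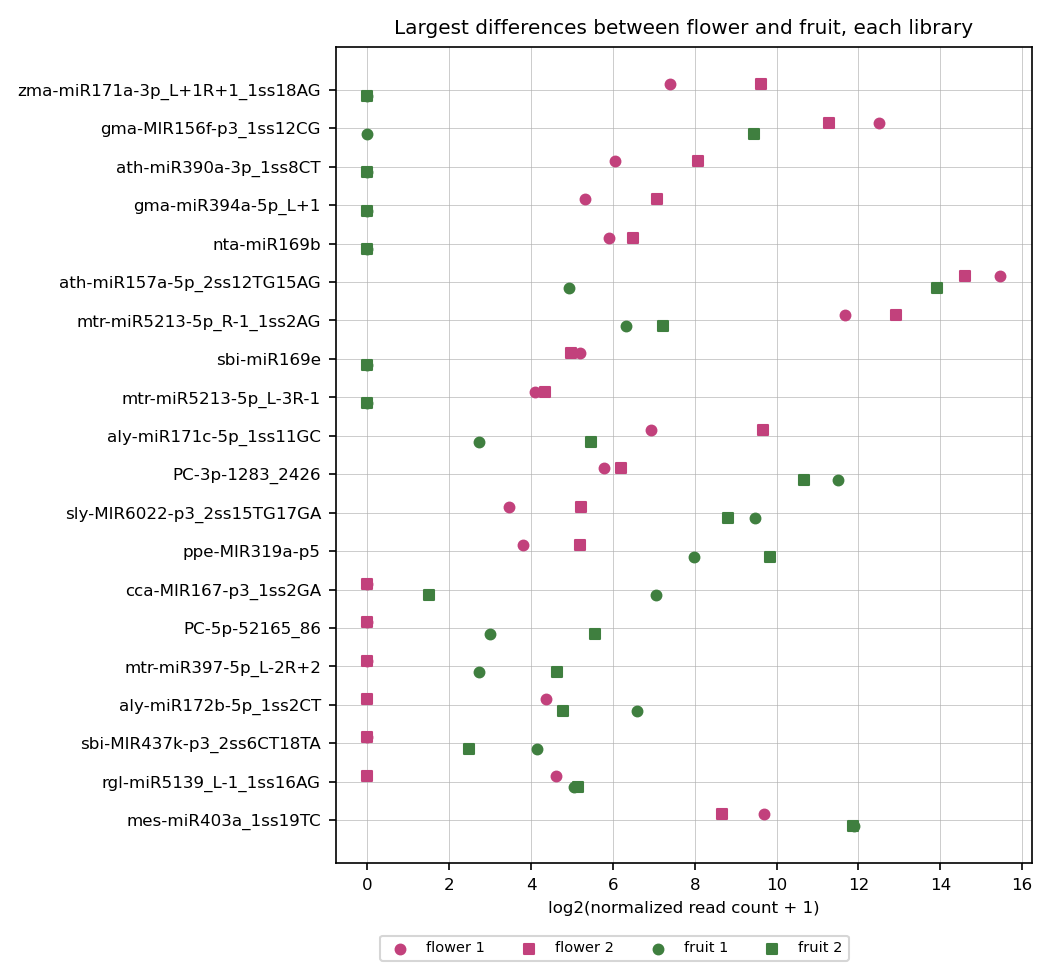
Each row is 1 of the 20 miRNAs with the largest log2 differences, 10 per direction, among those with no overlap between flower and fruit and a mean of 10 or more in the tissue where they were higher, and the x axis is log2(normalized read count + 1) in each of the 4 libraries. Circles are the first and squares the second library of a tissue. The fruit points of ath-miR157a-5p_2ss12TG15AG are far apart, while those of mes-miR403a_1ss19TC almost coincide.

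**Figure D4:**
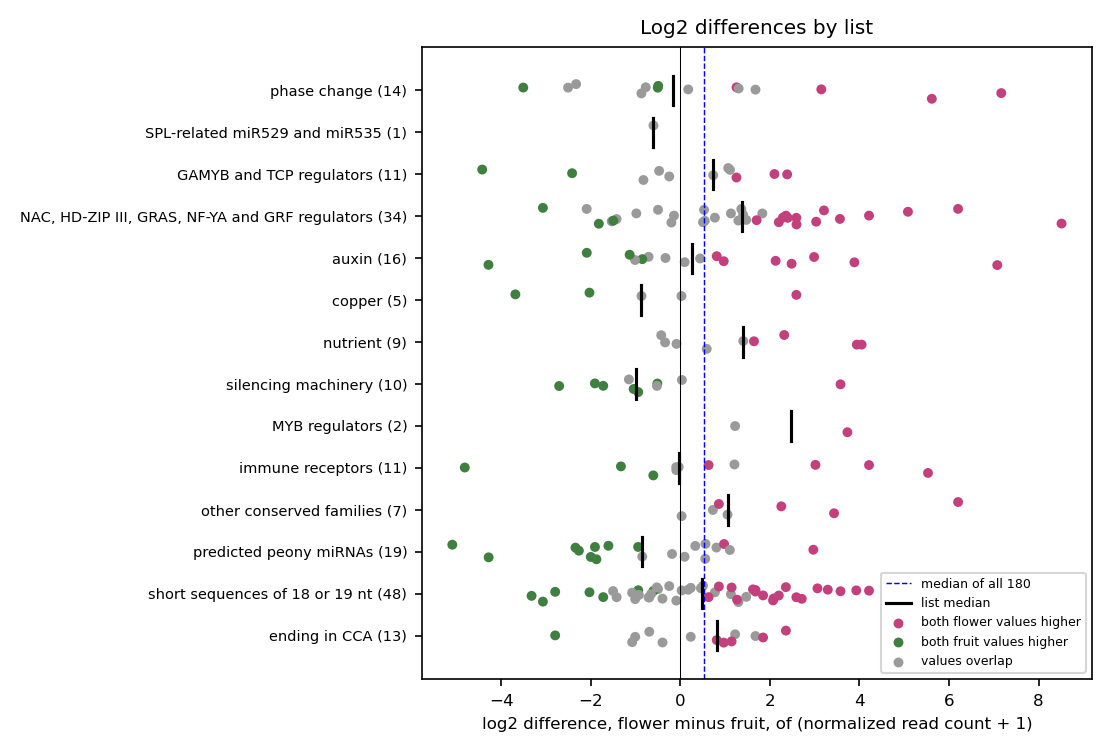
Each point is a tested miRNA, placed by its log2 difference, flower minus fruit, on the x axis and by its list on the y axis, with the number tested in brackets. The black bar is the list's median and the dashed line the median of all 180, at 0.52, and 6 of the 10 silencing-machinery miRNAs have both fruit values higher.

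The PC miRNAs, which were predicted by the authors and match no known hairpin, held the largest fruit-side difference. Of 19 tested, 9 had both fruit values higher and 2 both flower values (20% and 35% over all 180). With equal totals the counts were 13 and 1, against 58 and 44 of all 180. PC-3p-1283_2426 was 54.4 and 72.6 in flower and 2905 and 1625 in fruit, 35.7-fold higher in fruit. Its log2 difference was -5.09 ± 0.70 (SE, n = 2 per tissue, limma adjusted p = 0.0729, and 0.301 with all 8 libraries). It was not high in fruit alone, since root was 8.54 and 1825, while leaf was 47.2 and 148.

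Of these, 10 are named 5p and 9 are named 3p, and a search among them, chosen after the data were seen, looked for arms that could pair as in a hairpin. In 7 pairs each arm was the other's best match, with 15 to 19 paired bases including G with U. The other 83 combinations of these arms had a median of 10 paired bases and at most 16, which is above the lowest of the 7 pairs. The 7 pairs were picked for their match, and no unrelated sequences were searched for comparison. A match is a description and does not show that the arms come from 1 hairpin. The 3 pairs whose arms lay on the same side are shown, each as a 5p arm followed by its 3p arm, with the bases that can pair in capitals. The first pair was higher in flower and the other 2 in fruit.

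PC-5p-97_25693: TGACGGAGAGaGAGAGCACAc
PC-3p-859_3455: TGTGCTCTCcCTCTTCGTCAg
PC-5p-58724_76: aTCGTTTTAAGCTTTTTCatt
PC-3p-1283_2426: cGAAAAAGCTTGAAATGAaga
PC-5p-3586_985: TcGATCCATTCTTCgATCGct
PC-3p-503_5584: CGGTgGAAGAATGGATTcGggg

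In the first pair, PC-5p-97_25693 was 3097 and 6837 in flower and 2253 and 2424 in fruit. PC-3p-859_3455 was 26.8 and 179 in flower and 6.98 and 9.22 in fruit. Both flower values were higher for each arm, and both arms were lower in fruit than in any of the 6 other libraries. With equal totals the values of PC-5p-97_25693 overlapped.

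In the second pair, PC-5p-58724_76 was 7.35 and 8.15 in flower and 43.3 and 38.7 in fruit, beside PC-3p-1283_2426 above. In the third, PC-5p-3586_985 was 51.0 and 129 in flower and 497 and 189 in fruit, and PC-3p-503_5584 was 1234 and 2194 in flower and 3481 and 2866 in fruit. All 4 arms of these pairs had both fruit values above both flower values. In 2 of the remaining pairs the 5p arm alone was separated, as for PC-5p-433_6258 at 107 and 753 in flower and 1270.2 and 1635 in fruit, while its partner PC-3p-122_21043 was 363 and 6391 in flower and 921 and 822 in fruit and overlapped.

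**Figure D5:**
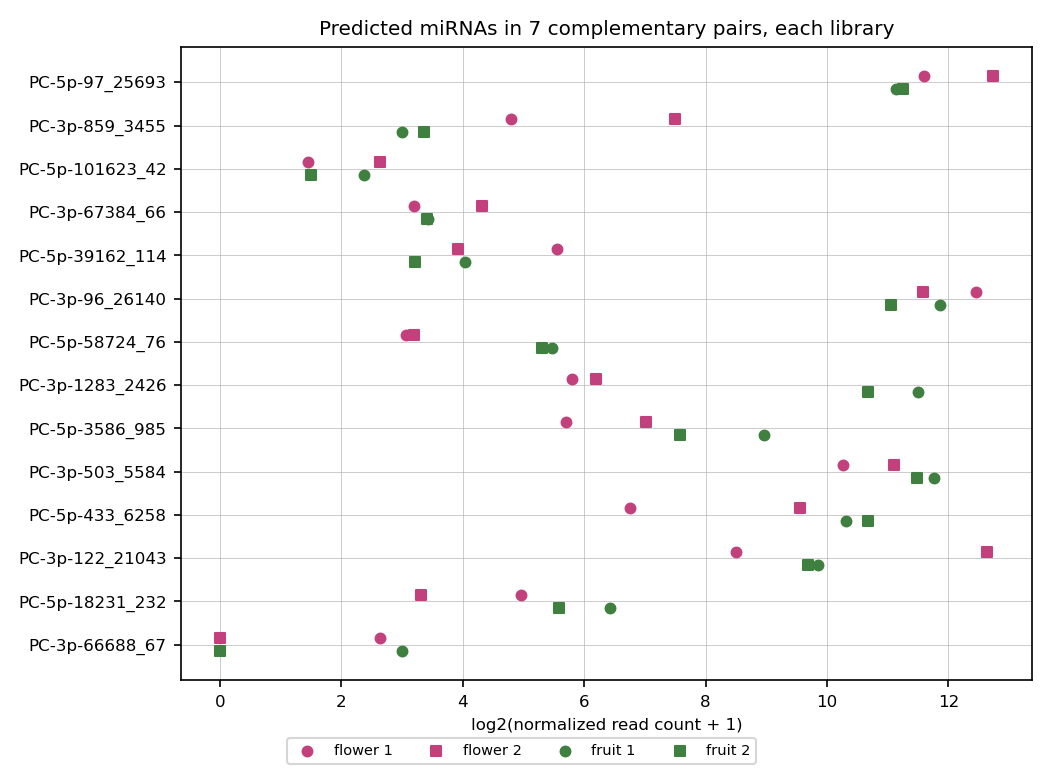
The 14 predicted miRNAs of the 7 complementary pairs are listed in order of pair, 5p above 3p, with log2(normalized read count + 1) in each of the 4 libraries on the x axis. Both arms lie on the flower side in the first pair and on the fruit side in the pairs of PC-3p-1283_2426 and PC-3p-503_5584.

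Summed over families, 0 of 67 tested families passed (0% called), with 16 at an unadjusted p under 0.05 and the lowest adjusted p, 0.0566, at miR5213. Both flower values were higher for 21 families (31.3%) and both fruit values for 11 (16.4%), and with equal totals these counts were 16 and 23. With all 8 libraries 4 families were called, miR169, miR5213 and miR858 higher in flower and miR6022 higher in fruit. Family calls with 1 library left out are not given, since the other tissue's pair alone then sets the spread. For families such as miR6173 and miR9761 the fruit pair was at 0 in both libraries.

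Both fruit libraries listed 30 of the 180 at 0, and in 13 of these both flower values exceeded the highest fruit floor of 4.19. For the other 17, at least 1 flower value was at or below that floor, so a lower level in fruit was not detectable at this depth. Both flower libraries listed 5 at 0, and in 4 of these both fruit values exceeded the highest flower floor of 2.22.

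Sequences of 18 or 19 nt and sequences ending in CCA, as mature transfer RNAs do, were followed as signs of breakdown products. The first held 1.53% and 0.547% of the flower totals and 1.93% and 1.06% of the fruit totals, and the second 1.58% and 0.415% against 1.44% and 0.990%. Flower 2 had the lowest share of both. Of the 48 tested sequences of 18 or 19 nt, 19 had both flower values higher and 7 both fruit values, near the 35% and 20% over all 180, and 11 and 14 with equal totals. Of the 13 ending in CCA these counts were 5 and 1, and 1 and 2 with equal totals. The mtr-miR5213-5p_L-3R-1 form, at 18 nt, is among the short sequences, and their part in its values was not tested. gma-miR6300_R+5, which resembles a transfer RNA fragment, was 18850.1 and 3059 in flower and 2734 and 6240 in fruit and overlapped. Of the 180, 10 are mostly a repeat of 2 bases, among them cca-MIR167-p3_1ss2GA, which was 0 and 0 in flower and 132 and 1.84 in fruit.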

How the data were processed

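Per the labels' protocols, libraries came from a TruSeq small RNA kit, were read on a HiSeq and were filtered with ACGT101-miR. The deposited table holds the authors' normalized read counts, used here as a signal, per the file headers. Its legend describes mapping to miRBase hairpins and, for some groups, to a genome. How the values were scaled, with which program versions and on which build, is not given in the sources used here. The low values were not whole multiples of 1 step for all miRNAs, so no count model was run. Genome positions were not used here.

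Of 304 entries, those with the same sequence were counted once under the first name. Those reaching a value of 1 in 2 or more of the 4 libraries were compared. log2(value + 1), which understates changes of low values, was analysed by limma 3.58.1 (R 4.3.3), taking tissue as the only term, flower and fruit libraries only, 2 residual and 2.06 prior degrees of freedom, and Benjamini-Hochberg adjustment at 0.05. Scripts were tested on simulated data. A fold is the ratio of tissue means, and none is given against a tissue listed at 0. Lists follow family numbers and known targets. 1 list of animal names matched 0 of 270 sequences. Another list, of miR529 and miR535, held 1 tested miRNA, ppe-MIR535a-p5_2ss12GA18CT, at 2.59 and 8.15 in flower and 12.6 and 4.61 in fruit, which overlapped.

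Named miRNAs were the 10 largest differences per direction among those that did not overlap with a mean of at least 10 in the higher tissue, the 10 most abundant, and the most abundant of each list, 35 in all, and others were named after their values were seen. Members, lists and tests were chosen with earlier results of these data known. Alternatives were other pseudocounts, filters and scalings, a fit with all 8 libraries, a replicate block, each entry by itself and leaving out each library.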

Additional observations from a re-analysis of the deposited data

How the results depend on the processing

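As deposited, 0 of 180 miRNAs and 0 of 67 families were called. For miRNAs the count was 13 with all 8 libraries in the fit and 0 under every other alternative that kept 2 libraries per tissue. For families it was 4 with all 8 libraries, 7 with a pseudocount of 0.5, 1 with a pseudocount of 10 and 1 with median-of-ratios scaling. Calls with 1 library left out are not given, since the spread then rests on 1 tissue. A fit with the replicate number as a block called 6 families, 4 higher in flower and 2 in fruit, and 0 miRNAs. The numbers do not pair the libraries, whose same-number deviations had a correlation of -0.046 across miRNAs. The miRNAs with both flower values higher fell from 63 to 36 with a minimum value of 10, a setting that tests fewer miRNAs, and those with both fruit values higher numbered 58 with equal totals and 51 to 56 with 1 library left out. For families, both fruit values were higher in 23 with equal totals and in 18 to 20 with 1 library left out, where a single library overlaps less by construction.

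The 20 miRNAs with the largest differences kept their sign under each alternative in which they were tested. They had been picked for values that did not overlap, which fixes the sign under every alternative except a change of scaling. Their kept signs are therefore a check of the scalings only. Not every miRNA given above was followed in this way, as with PC-3p-122_21043, whose log2 difference turned to -0.12 with equal totals. Among the 58 named miRNAs that were followed, signs turned for 10, none called. With equal totals they were gma-miR6300_R+5 (-0.048), ath-miR408-3p_L-1R+1_2ss12CT15CT (-0.69), ath-miR390a-5p_1ss19GA (-0.48) and ath-miR319a (-0.19), and for the miR408 form also -0.26 with quantile normalization and -0.078 with median-of-ratios scaling. With 1 library left out, log2 differences crossed 0 for the following, with ranges of -0.036 to 2.84 for bdi-miR166a-3p, -0.43 to 2.19 for gma-miR6300_R+5, -2.92 to 0.90 for vvi-miR167b, -1.71 to 0.76 for vvi-MIR159c-p5_1ss10CA, -1.28 to 0.068 for ppe-MIR535a-p5_2ss12GA18CT, -2.03 to 2.08 for ath-miR408-3p_L-1R+1_2ss12CT15CT, -0.54 to 3.35 for ppe-miR2111a, -2.17 to 0.16 for ath-miR8175_L-2, -0.76 to 1.64 for ath-miR390a-5p_1ss19GA and -1.36 to 2.83 for ath-miR319a. The cause was not tested. Depth limits fruit most, where 3 reads are worth up to 4.19.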

Other observations

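Seen against all 8 libraries, 21 of the 180 miRNAs had both flower values above every other library, and 11 had both fruit values below every other library. Both fruit values were above every other library for 9 and both flower values were below every other library for 4. Apart from the miRNAs described above, the first group held csi-miR1515, named after its values were seen, at 83.4 and 1121 in flower, 33.5 and 66.4 in fruit and at most 68.3 in root and leaf. The second held zma-miR156a-3p_1ss22TG, also named after its values were seen, at 225 and 30.4 in flower, 9.77 and 7.38 in fruit and 43.2 to 1446 in root and leaf. The third held ath-miR162a-5p_L-1, the 5p arm of a miR162 hairpin, at 25.5 and 30.4 in flower and 44.7 and 36.0 in fruit. These groups use the same values as the comparison of flower with fruit and are descriptions with no test.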
